A study of Caenorhabditis elegans with 2 samples.

Results

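MicroRNA genes of Caenorhabditis elegans were examined for binding of HLH-8, the worm's Twist-family basic helix-loop-helix factor, by chromatin immunoprecipitation sequencing (ChIP-seq). The members are the 261 genes whose name begins with mir- or is let-7, lin-4 or lsy-6, 1 entry per locus, among 46890 annotated nuclear genes. The window searched around each 5′ end reached 2000 bp upstream and 500 bp downstream, and a member counted as having a site when a peak summit fell in it. The annotated 5′ end is that of the hairpin precursor for 254 members and that of a longer gene model for the other 7, which include let-7, so for most loci the start of the primary transcript is not what was measured from.

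The data come from 1 group with 2 biological replicates of hermaphrodite late embryos, strain OP63, taken 3.5 hours after bleaching. All animals carry a transgene in which GFP and FLAG are joined to the C-terminal end of HLH-8, and per the sample descriptions the immunoprecipitation used an antibody against GFP, although the antibody field names hlh-8. Whole embryos were used, so binding in a few cells and weak binding in many cells cannot be told apart. The labels do not give the promoter that drives the fusion, and animals without it were not analysed here. The candidate lists hold 24268 peaks for replicate 1, 23945 for replicate 2 and 25904 for the pooled reads, with background kept in. The optimal list holds the 1120 peaks that passed the authors' reproducibility step, and these are also the 1120 pooled candidates of highest signal. Its signals ran from 57.4 to 1132 with a median of 79.6, in the arbitrary unit of the deposited peak lists. Read depth is unknown, so signals carry the spread between replicates but no counting interval.

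HLH-8 is known as a mesodermal factor that acts in the postembryonic M lineage and in enteric muscles, and pairs with the E protein HLH-2 on E-boxes, DNA words of the form CANNTG. MicroRNAs are cut from hairpins in longer RNA polymerase II transcripts by Drosha and Dicer, loaded into Argonaute proteins, and pair with messages chiefly through their seed, bases 2 to 8. Worm microRNA genes stand alone, in clusters read as 1 transcript, or in introns of protein-coding genes, where they may share the host's transcript or use a promoter of their own. That is why the intronic and the intergenic loci were kept apart.

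The mature microRNAs of the loci with optimal summits were grouped by seed, except for 5 loci. Those were left out of the seed comparison and are named in the processing section, so the groups below are not complete. Sequences were read from the RefSeq annotation and genome of WBcel235. The largest group is the mir-51 family, in which 5 of 6 loci had an optimal summit. Its members are shown because they share a seed, in capitals here, although it comes from the 5′ arm of the hairpin in mir-51, mir-52 and mir-53 and from the 3′ arm in mir-54, mir-55 and mir-56:
mir-51: uACCCGUAgcuccuauccauguu
mir-52: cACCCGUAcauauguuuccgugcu
mir-53: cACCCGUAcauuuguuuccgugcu
mir-54: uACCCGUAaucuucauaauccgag
mir-55: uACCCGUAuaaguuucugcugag
mir-56: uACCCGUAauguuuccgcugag

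The second group is the mir-64 cluster on chromosome III, where 4 loci share both a seed and 1 optimal summit. The fifth locus with that seed, mir-63 on X, had no pooled candidate in its window. Sequences of 3 loci of the cluster are shown, with the seed in capitals:
mir-64: uAUGACACugaagcguuaccgaa
mir-66: cAUGACACugauuagggauguga
mir-229: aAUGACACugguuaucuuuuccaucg

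In the other seed groups of more than 1 locus, among the loci compared, only 1 locus had an optimal summit. That was mir-72 in a group of 5 loci, mir-90 in a group of 2 and mir-356a in a group of 3. For the groups of mir-72 and mir-90, a member with an optimal summit and 1 without are set side by side here, with their common seed in capitals:
mir-72: aGGCAAGAuguuggcauagcuga
mir-73: uGGCAAGAuguaggcaguucagu
mir-90: uGAUAUGUuguuugaaugccccu
mir-62: uGAUAUGUaaucuagcuuacag
The strongest pooled candidate was 20.7 at mir-73 and mir-74, which share it, and 41.0 at mir-62 on X.

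In all, 21 of the 261 microRNA genes (8.05%) had an optimal summit in the window. The same count was 5.42% of nuclear protein-coding genes, 4.24% of all nuclear genes other than microRNA genes, 4.26% of nuclear genes of every kind and 16.5% of snoRNA and snRNA genes. A pooled candidate, which can be background, lay in the window of 163 microRNA genes (62.5%), against 50.7%, 44.3%, 44.4% and 64.3% of those 4 sets in the same order. No test of the set was made, so these shares are descriptions. Among the members with a candidate, the strongest one had a median signal of 28.7, against 20.4 over the 10124 protein-coding genes with one.

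Loci of a cluster share a window, so the 21 genes are not 21 sites. They held 18 distinct optimal summits, with a median signal of 77.8 against 79.6 over the whole optimal list. Of these, 12 lay outside the windows of protein-coding genes, 6 lay inside at least 1 such window, and none was within 500 bp of a tRNA, snoRNA or snRNA gene. The same shares over the whole optimal list are not given, so these counts mark no trait of the microRNA sites. Every one of the 18 summits ranked among the strongest 1120 candidates of at least 1 replicate, and 11 (61.1%) did so in both, against 67.4% of all optimal peaks. The signal was higher in replicate 2 at 12 sites and in replicate 1 at 6, with a median log2 ratio of replicate 2 to replicate 1 of 0.33 and an SD of 0.52 over sites, against 0.18 and 0.50 over the 1117 optimal peaks found in both. These values include the summit 137 bp downstream of the mir-52 5′ end. Its replicate 2 value, from the candidate that also matched the main mir-52 summit, is not a separate one.

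**Figure D1:**
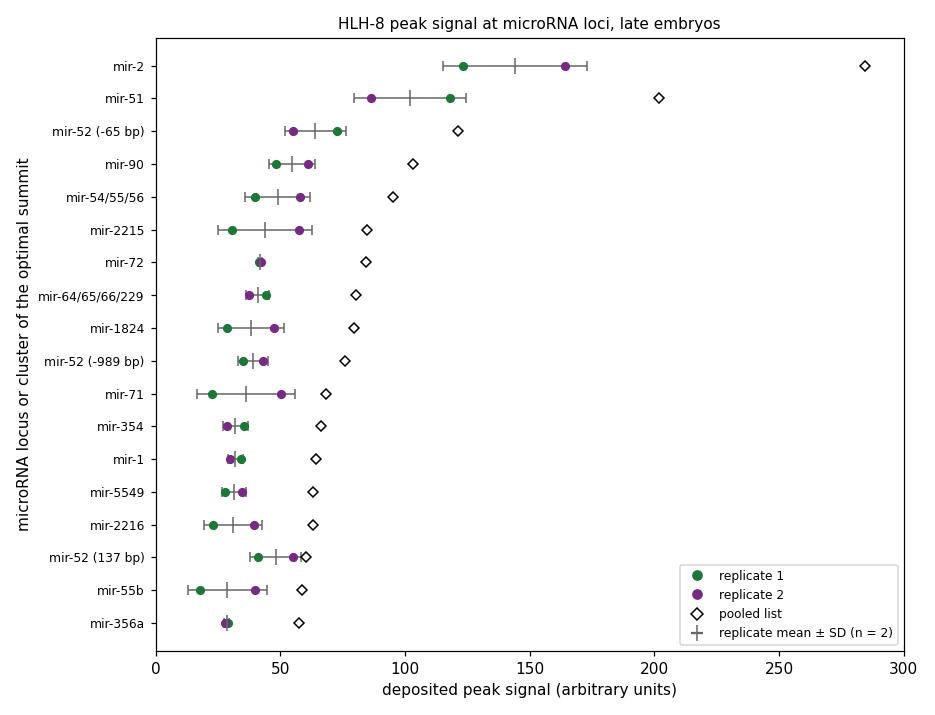
Deposited peak signal, in arbitrary units, at the 18 optimal summits in microRNA windows, with replicate 1 in green, replicate 2 in purple, their mean ± SD (n = 2) as a grey bar and the pooled value as an open diamond. The sites of mir-2 and mir-51 stand at pooled signals of 284.3 and 201.8, and the remaining sites lie between 57.4 and 121.3.

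Intronic loci had an optimal summit more often than intergenic ones by count, where intergenic means overlapping no protein-coding gene. Of the 97 members inside an intron of a protein-coding gene, 13 (13.4%) had one, against 6 of 153 intergenic members (3.92%), and 2 of the 11 that overlapped an exon, mir-354 and mir-356a. The intronic share was 13.4% for the 67 loci on the host's strand and 13.3% for the 30 on the other strand. Loci in clusters count more than once here, since the 13 intronic genes rest on 8 summits and the 6 intergenic genes also on 8. With the strongest 1120 candidates of replicate 2 alone in place of the optimal list, that is without replicate 1, the intronic count was 22, 7 of them the mir-35 to mir-41 genes with 1 shared summit, and without replicate 2 it was 15. With neighbouring loci joined into clusters the counts were 8 of 85 for intronic and 6 of 129 for intergenic loci. Pooled candidates lay in the windows of 71.1% of intronic and 56.9% of intergenic members. Protein-coding genes that start inside another protein-coding gene had an optimal summit in 4.53% of cases and a pooled candidate in 52.5%, and those that start outside had 5.49% and 50.6%.

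The mir-51 family, with 3 intergenic loci and 3 in an intron, is described first, then the other intergenic and intronic loci. The mir-51 family is related by sequence to the miR-99 and miR-100 family of other animals, and its members act redundantly in worm embryonic development. Coordinates are those of ce11, which is WBcel235. At mir-51, on chromosome IV at 11026013 to 11026112, the optimal peak spanned 11025913 to 11026377 with its summit 24 bp upstream of the 5′ end. It ranked 43 of 1120 with a pooled signal of 201.8, and the replicate signals were 118.0 and 86.4 (102 ± 22.3, SD, n = 2). Replicate 1 was the higher. The nearest protein-coding transcript start was that of hrg-5, 3049 bp away.

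The mir-52 locus, on chromosome IV at 14034008 to 14034107, had 3 optimal summits within 1126 bp. The strongest lay 65 bp upstream, with a pooled signal of 121.3 and replicate signals of 72.8 and 55.3 (64.0 ± 12.3, SD, n = 2). A second summit 989 bp upstream had 76.0, with 34.9 and 43.2 in the replicates (39.0 ± 5.91). The third, 137 bp downstream and so just past the hairpin, had 60.3, and in replicate 2 it was matched by the same candidate as the strongest one, so these are not separate sites in that replicate. The nearest protein-coding transcript, of Y37A1B.7, began 9837 bp from the strongest summit.

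The 3 loci mir-54, mir-55 and mir-56 lie within 307 bp of each other on X and share 1 optimal peak, at 13145125 to 13145568. They sit in an intron of F09A5.3 but on the other strand. The summit was 253, 423 and 560 bp upstream of their 5′ ends, in the order of the names. Its pooled signal was 95.2, with 39.7 and 58.1 in the replicates (48.9 ± 13.0, SD, n = 2), replicate 2 being higher. The locus annotated as mir-55b, which lies opposite mir-55 on the strand of F09A5.3, had another summit 1479 bp upstream with 58.8. That site was uneven between the replicates, at 17.7 and 39.9 (28.8 ± 15.7), and ranked 3233 in replicate 1.

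The sixth member, mir-53, lies 1579 bp from mir-51 and had only a candidate below the optimal list. Its summit was 102 bp upstream and ranked 1897 with a pooled signal of 43.1, and 17.3 and 28.3 in the replicates (22.8 ± 7.74, SD, n = 2). So all 6 members of the family had a candidate in the window, and 5 had an optimal summit.

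The sequences under the main summits of these loci, and of 2 intronic sites described below, are printed to show the words found there. They are taken from the WBcel235 genome on the plus strand, 50 bp to either side of the summit, with capitals for any of the 10 classes of CANNTG word, a word and its reverse complement being 1 class, or for GAGAGA, on either strand. No summit among these 5 was in the window of a protein-coding gene. Matches may overlap, as in the GAGAGA run near mir-90.
mir-51, chrIV:11026086-11026186: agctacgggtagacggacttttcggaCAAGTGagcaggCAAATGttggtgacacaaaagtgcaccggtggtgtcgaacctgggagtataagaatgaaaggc
mir-52, chrIV:14033893-14033993: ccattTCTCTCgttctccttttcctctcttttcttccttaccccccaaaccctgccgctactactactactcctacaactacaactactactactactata
mir-54 to mir-56, chrX:13145297-13145397: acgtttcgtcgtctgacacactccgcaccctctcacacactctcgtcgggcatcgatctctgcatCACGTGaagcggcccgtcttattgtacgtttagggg
mir-64 cluster, chrIII:2171998-2172098: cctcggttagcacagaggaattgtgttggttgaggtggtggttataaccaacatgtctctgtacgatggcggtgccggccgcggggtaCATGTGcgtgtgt
mir-90, chrIII:8874343-8874443: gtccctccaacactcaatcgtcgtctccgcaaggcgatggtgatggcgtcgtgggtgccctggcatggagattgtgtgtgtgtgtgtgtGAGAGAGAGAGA

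The mir-51 window held CAAGTG together with CAAATG, that of mir-54 to mir-56 held CACGTG, and that of the mir-64 cluster held CACATG near its edge. The main mir-52 window and the mir-90 window held none of the 10 classes. Over the 18 sites, any of the 10 classes was present within 50 bp at 8 (44.4%), against 48.5% of all 1120 optimal summits. One or more of 3 classes was present at 4 (22.2%), against 26.2%. These are CATATG, the class known from HLH-8 target promoters, with CAGATG as well as CACATG, the pair most frequent in the optimal list. CAGATG stood near the summits of mir-2 and mir-55b, CACATG near those of mir-2 and the mir-64 cluster, and CATATG near that of mir-356a. GAGAGA was present at 7 sites (38.9%), against 25.6%. The windows had a mean GC content of 49.3% ± 8.48 (SD over 18 windows), against 48.0% ± 8.35 over all optimal summits. With so few sites these shares are descriptions, and a match is not a binding site shown to be used.

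Among the remaining intergenic loci, mir-1 encodes the conserved muscle microRNA that in the worm acts on acetylcholine receptor subunits and mef-2 in muscle. Its summit, on chromosome I at 6173319, lay 562 bp upstream and was the one candidate in its window. The pooled signal was 64.5, rank 873, with 34.1 and 29.8 in the replicates (32.0 ± 3.02, SD, n = 2). The replicates were close to each other, and the only protein-coding window that held the summit was that of T09B4.3, at 1876 bp. GAGAGA was present near it and no CANNTG word was.

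The mir-72 site on chromosome II was far upstream, at 1625 bp. Its pooled signal was 84.2, with nearly equal replicates of 41.4 and 42.4 (41.9 ± 0.715, SD, n = 2). At mir-2215 the summit was 1708 bp upstream with 84.8, but the replicates were 30.5 and 57.4 (43.9 ± 19.0), replicate 2 being higher by 1.88 times. At mir-5549 the summit was 2 bp inside the gene, with 63.3 (replicates 31.3 ± 4.79), and also 170 bp upstream of rfc-4, which encodes a replication factor C subunit, and 371 bp upstream of eef-1A.1, which encodes translation elongation factor 1A. That site cannot be given to 1 of these genes.

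The strongest of all the microRNA sites was intronic. It lay in ppfr-1, which encodes a regulatory subunit of protein phosphatase 4, 1959 bp upstream of mir-2, close to the edge of the window. mir-2 belongs to a microRNA family of invertebrates. The peak, on chromosome I at 9374611 to 9375026, ranked 17 with a pooled signal of 284.3 and replicate signals of 123.2 and 164.0 (144 ± 28.8, SD, n = 2). The closest protein-coding start was that of ppfr-1 itself, 14760 bp away, and mir-2 is on the strand of its host.

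A second microRNA in the same gene, mir-71, known for its part in life span and starvation survival, has its 5′ end 7155 bp from that of mir-2. Its summit was 1451 bp upstream with a pooled signal of 68.3. Replicate 2 was higher by 2.23 times, with signals of 22.6 and 50.3 (36.4 ± 19.6, SD, n = 2), and the peak ranked 1812 in replicate 1 and 398 in replicate 2.

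The mir-64 cluster lies in an intron of gcn-1, which encodes a regulator of the translational stress kinase GCN-2, on the same strand. mir-229, mir-64, mir-65 and mir-66 follow each other within 656 bp. Their common summit was 404 bp upstream of mir-229, the first of them, and 800, 954 and 1060 bp upstream of the others. The pooled signal was 80.3, with 44.3 and 37.6 in the replicates (40.9 ± 4.73, SD, n = 2). The host's 5′ end was 20103 bp away, and no protein-coding window held the summit.

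At mir-90, in an intron of K01F9.2 on the same strand, the summit lay 309 bp upstream. Its pooled signal was 103.3, rank 281, with 48.1 and 61.1 in the replicates (54.6 ± 9.17, SD, n = 2). The nearest protein-coding 5′ end was 2735 bp away.

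The remaining 2 intronic loci with an optimal summit, and both exon-overlapping ones, shared it with the promoters of protein-coding genes. The mir-1824 summit lay 422 bp downstream of the 5′ end, with 79.5 (replicates 38.1 ± 13.2, SD, n = 2). It was 87 bp upstream of Y87G2A.18 and 173 bp upstream of Y87G2A.1. The mir-2216 summit lay 1778 bp upstream of that gene's 5′ end, with 63.2 (31.1 ± 11.7). It was 230 bp upstream of the host gmps-1, which encodes GMP synthetase, and 246 bp upstream of cap-2. The mir-354 summit, with 66.5 (32.0 ± 4.88), was 141 bp upstream of ekl-4 and in the window of rps-20, a ribosomal protein gene whose exon mir-354 overlaps. The mir-356a summit, the weakest of the 18 at rank 1115 with 57.4 (28.5 ± 1.05), was 244 bp upstream of coq-5 and also in the windows of ufm-1, tomm-7 and tag-307. At these 4 loci, as at mir-5549, a protein-coding 5′ end was nearer to the summit than 500 bp.

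**Figure D2:**
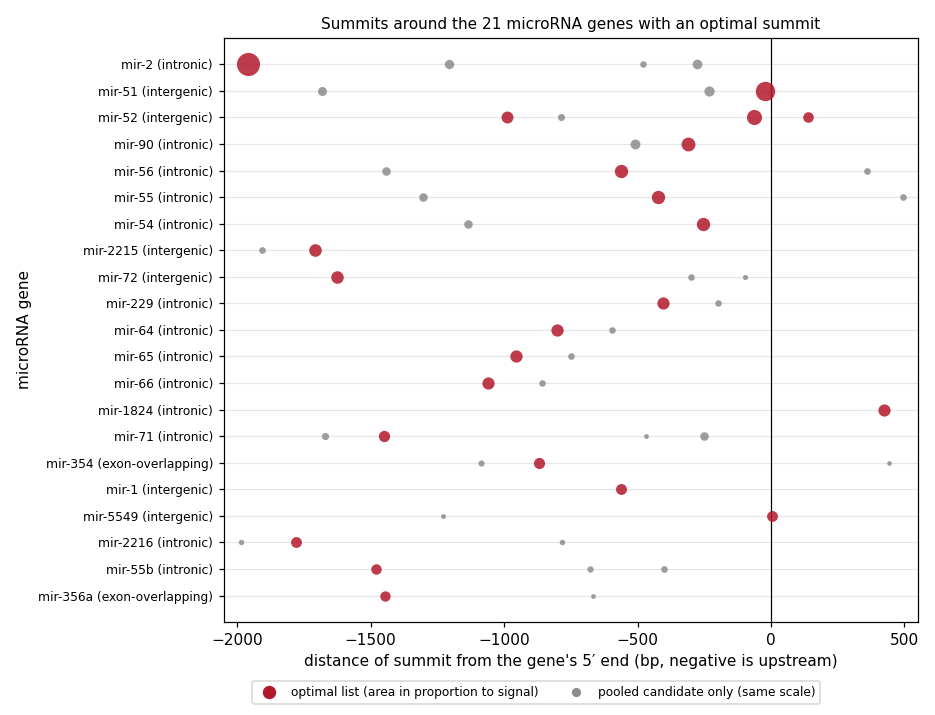
Positions of summits, as bp from the gene's 5′ end with negative values upstream, for the 21 microRNA genes with an optimal summit, ordered from the strongest down. Red circles are optimal summits and grey circles are pooled candidates outside the optimal list, with area in proportion to signal. The strongest summits at mir-51, mir-52 and mir-5549 lie within 65 bp of the 5′ end, while another optimal summit of mir-52 lies 989 bp upstream. The optimal summits of mir-2, mir-2215, mir-2216 and mir-72 lie more than 1600 bp upstream.

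The distance of the summits from the 5′ end was counted in ranges. Genes of a cluster share a summit and can fall in different ranges, as the mir-64 cluster does in 3, so the few genes in each range are not separate sites. In the 500 bp upstream of the 5′ end, 6 of the 261 microRNA genes (2.30%, 5 distinct summits) had an optimal summit, against 2.89% of protein-coding genes. From 501 to 1000 bp upstream the shares were 2.30% (6 genes, 5 summits) and 1.04%, and from 1001 to 2000 bp, a range of greater width, they were 3.07% (8 genes, 8 summits) and 1.37%. Within 500 bp downstream they were 1.15% (3 genes, 3 summits) and 0.245%. The summits of mir-1824 and mir-5549 in that range lay in protein-coding promoters. In a narrow window of 500 bp upstream and 200 bp downstream, 7 microRNA genes (2.68%) had an optimal summit against 3.03% of protein-coding genes. The share was thus above that of protein-coding genes in the wider window and not in the narrow one. For intronic loci it was 4.12% (4 genes) within 500 bp upstream and 5.15% (5 genes) from 1001 to 2000 bp, a difference of 1 gene, and for intergenic loci it was 1.31% in both. Beyond the window, from 2001 to 5000 bp upstream, the shares were 9.28% for intronic loci (9 genes, 4 summits), 3.27% for intergenic loci and 3.34% for protein-coding genes.

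**Figure D3:**
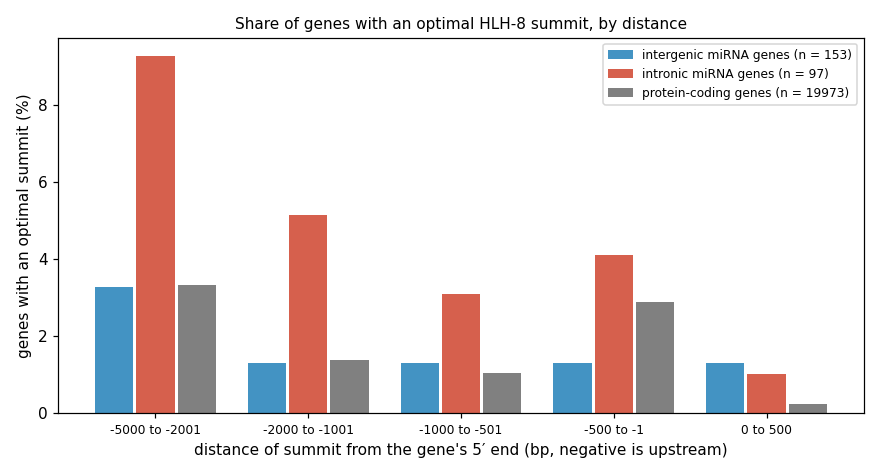
Percentage of genes with an optimal summit in each range of distance from the 5′ end, for 153 intergenic microRNA genes (blue), 97 intronic microRNA genes (red) and 19973 protein-coding genes (grey). The ranges differ in width and each holds 9 or fewer intronic genes. Protein-coding genes stand at 2.89% at 1 to 500 bp upstream, and intronic microRNA genes at 4.12% there and 5.15% at 1001 to 2000 bp.

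Families and loci with well-known roles are given next. With 8.05% of all members called, a count of 0 in a family of 8 or fewer genes is near that share and is no result about the family. None of the 5 genes of the let-7 family, which times the larval to adult transition, had an optimal summit. let-7 itself had a candidate 1821 bp upstream, ranked 2676 with 35.6 (replicates 15.8 ± 1.69, SD, n = 2). The strongest of its relatives was mir-241, with 39.4 at 505 bp upstream (19.4 ± 2.33), while mir-48, mir-795 and mir-84 had candidates of 20.7, 22.5 and 13.2.

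The lin-4 locus, the founding microRNA and a repressor of lin-14, came closer to the optimal list. Its candidate, in an intron of F59G1.4 on the same strand and 364 bp upstream, ranked 1279 with 53.8, and had 22.3 and 36.0 in the replicates (29.2 ± 9.72, SD, n = 2). It was among the strongest 1120 candidates of replicate 2, at rank 834, and not of replicate 1. The related mir-237 had 14.8. lsy-6, which sets the left identity of a taste neuron, had no candidate in its window, and neither had mir-788.

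The mir-35 family is required in the embryo, and none of its 8 genes had an optimal summit. The 7 clustered genes from mir-35 to mir-41 share 1 candidate, 291 bp upstream of mir-35, which ranked 1600 with 47.6. Its replicate signals were 20.8 and 32.6 (26.7 ± 8.30, SD, n = 2). mir-42, apart from the cluster, had 35.2 at 247 bp upstream (17.8 ± 1.16).

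Among the relatives of mir-58, abundant microRNAs of the bantam family, mir-80 came nearest to the optimal list. It had a candidate of 55.2, rank 1213, 175 bp upstream, with 26.6 and 30.3 in the replicates (28.5 ± 2.58, SD, n = 2). At mir-58a the strongest of 5 candidates had 50.9, 298 bp upstream, with 16.6 in replicate 2 and no match within 200 bp in replicate 1. Replicate 1 had its own candidate of 38.0 in the window, 41 bp upstream and at rank 574, so mir-58a was called on replicate 1 alone. mir-81 had 12.8 and mir-82 had no candidate.

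Further loci with known cell types or targets followed the same range. The neuronal mir-124, in an intron of trpa-1, had 42.5 at 506 bp upstream (replicates 22.0 ± 1.32, SD, n = 2), and mir-67, in an intron of zmp-1, had 48.0 at 177 bp (24.7 ± 1.88). mir-57, which is linked to the posterior Hox gene nob-1, had 30.1 at 118 bp (17.9 ± 3.34). Candidates of 14.0 to 21 lay at mir-34, mir-228, mir-273, mir-61 with mir-250, and mir-240 with mir-786. Of those, only that of mir-61 and mir-250, a shared one, was found in both replicates, at 11.8 and 8.56.

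**Figure D4:**
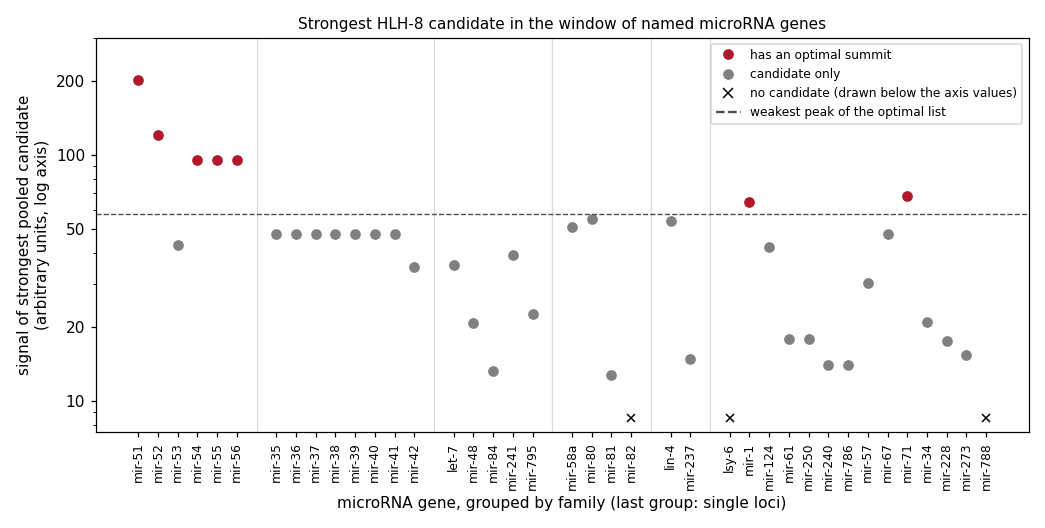
Signal of the strongest pooled candidate, in arbitrary units on a log axis, in the window of each named microRNA gene, grouped by family. Red points have an optimal summit, grey points have only a candidate, crosses have none, and the dashed line is the weakest optimal peak at 57.4. The mir-51 family stands above the line except for mir-53, and of the other named genes only mir-1 and mir-71 do.

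The 142 members with a candidate but no optimal summit had strongest signals from 11.9 to 56.6, with a median of 23.6, and 98 members had no candidate. The 10 with the strongest candidates ranked from 1158 to 1315, and their -log10 q was 3.57, the ceiling of the pooled list. They are mir-59 (56.6), mir-8186-1 and mir-8186-2, which share a candidate (55.6), mir-80, mir-1820 (54.8), mir-238 (54.5), mir-8190 (54.0), lin-4, mir-800 (53.3) and mir-8192 (53.0). The mir-1820 window held CATATG together with CAGATG and with CACGTG within 50 bp of its summit, 283 bp upstream, but its replicates were far apart at 16.5 and 37.5 (27 ± 14.8, SD, n = 2). At mir-238, 2058 bp from mir-80, the summit was 219 bp downstream, with CACATG and CAGCTG near it, and the replicates were 32.5 and 22.0 (27.2 ± 7.45).

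A list of 16 genes for proteins that make and use microRNAs was chosen with earlier results of these data known. Its shares are therefore descriptions only. Of the 16, 6 (37.5%) had an optimal summit, against 5.42% of all protein-coding genes. These are alg-5, an Argonaute gene, with 93.1 (replicates 49.1 ± 4.65, SD, n = 2), ain-1, a GW182-type cofactor of Argonaute, with 79.6 (39.6 ± 3.80), and xrn-2, an exonuclease that degrades mature microRNAs, with 100.8 (51.5 ± 4.88). The others are cgh-1, an RNA helicase of the DDX6 type, with 83.3 (41.3 ± 3.22), nhl-2, a TRIM-NHL cofactor, with 73.3 (37.5 ± 2.54), and dcs-1, a scavenger decapping enzyme, with 67.9 (30.9 ± 0.755). In 3 of these the summit was nearer to another gene, to his-68 for alg-5 at 169 bp, to bop-1 for xrn-2 at 176 bp and to tag-340 for nhl-2 at 585 bp. The genes drsh-1 (13.9), pash-1 (31.4), dcr-1 (22.8), alg-1 (30.4) and alg-2 (12) had candidates below the optimal list. So had ain-2 (21.9), lin-28 (19.8) and pup-2 (19), while xrn-1 and ebax-1 had no candidate. A pooled candidate lay in the windows of 14 of the 16 genes (87.5%), against 50.7% of protein-coding genes.

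Of 17 known microRNA targets none had an optimal summit, which at a background of 5.42% of protein-coding genes says nothing particular of a list of this size. A pooled candidate lay in the windows of 14 (82.4%), against 50.7% of protein-coding genes. The list too was chosen with earlier results of these data known, so this share is a description. A gene's strongest candidate was matched in both replicates only at lin-41, hbl-1, let-60 and sup-26. The highest signals were at let-60, the Ras gene, with 51.9 (27.5 ± 0.977, SD, n = 2), and at lin-41, the TRIM-NHL target of let-7, with 50.9 (25.3 ± 0.807). At let-60 the summit was nearer to ZK792.12. lin-14 had 21.6, hbl-1 had 27.9 and lin-28, which stands in both lists, had 19.8.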

How the data were processed

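The ce11 peak lists were used. Per the deposited file inventories, candidate lists were derived from alignments and a further input, and the optimal list from the irreproducible discovery rate step on both replicate lists and the pooled one. No source used here names the aligner or peak caller. Peak signals and -log10 q values are the authors' deposited ones, with unstated scaling and unknown read depth. The 4 ce10 lists were not used, for lack of an annotation of that build.

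Genes came from Ensembl release 115 (WBcel235), without its cel- prefix, and let-7 was named through RefSeq by WormBase identifier. A locus inside a protein-coding gene that touches none of its exons is intronic. A locus that overlaps no protein-coding gene is intergenic, so introns of other kinds of transcript were not set apart. A replicate value is its strongest candidate with a summit within 200 bp. Mature sequences were found for 227 of the 228 members outside chromosome I, and members on chromosome I are not in the seed comparison. The 5 of these with an optimal summit are mir-1, mir-2, mir-71, mir-354 and mir-1824. They were not grouped, and their seed relatives were not sought. 1 mature sequence of the mir-64 cluster is not reported here. Python 3.11.15 and numpy 2.4.6 were used, and window counts were checked on simulated summits. No set test was run and no p-value is given.

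Named genes are those with an optimal summit, the 10 strongest below it, a list of families and loci, genes sharing or hosting an optimal summit, and pathway and target genes with one. The pathway and target genes without one, seed relatives and nearest genes were named after their values were seen. Members and lists were chosen with earlier results of these data known. Alternatives were other windows, peak overlap, clusters, stronger peaks, and exclusion of shared promoters, small RNA genes and each replicate.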

Additional observations from a re-analysis of the deposited data

How the results depend on the processing

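Depth limits what can be said of weak candidates, since no read counts were used. No paired analysis was possible because there is 1 group. The count of 21 microRNA genes with an optimal summit became 13 with 1000 bp upstream (4.98%, against 4.13% of protein-coding genes), 7 with the window from 500 bp upstream to 200 bp downstream (2.68%, against 3.03%), 36 with 5000 bp upstream (13.8%, against 8.5%) and 13 with the 560 strongest optimal peaks (4.98%, against 2.90%). For intergenic genes, 6 became 3 in the narrow window, 11 with 5000 bp, and 10 of 186 when genes inside a gene on the other strand were added. For intronic genes, 13 became 8 with 1000 bp, 4 in the narrow window, 22 with 5000 bp and 8 when clusters were counted. The 163 genes with a pooled candidate became 92 in the narrow window (35.2%, against 26.3% of protein-coding genes). Sites with 1 or more of the classes CATATG with CAGATG and also CACATG went from 4 to 8 when 100 bp to either side were read (44.4%, against 35.7% of all optimal summits). These follow from the construction of each alternative.

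With the strongest 1120 candidates of 1 replicate in place of the optimal list, the count of all genes was 24 to 31 (9.20% and 11.9%, against 5.28% and 5.27% of protein-coding genes), of intergenic genes 7 to 9 and of intronic genes 15 to 22. For candidates of any rank, leaving out replicate 1 gave 145 genes (55.6%) and leaving out replicate 2 gave 153 (58.6%). The same shares of protein-coding genes are not given. Without replicate 1 the intronic count was 22, with the shared candidate of mir-35 to mir-41 included, and mir-1, mir-354 and mir-356a dropped out. Without replicate 2, mir-71, mir-2216 and mir-5549 dropped out. Each way 18 of the 21 genes were still called, but mir-55b on replicate 1 only through the summit of mir-54 to mir-56, 472 bp downstream of its 5′ end, and not through its own site. Without summits in protein-coding promoters 16 genes were called (6.13%, against 1.39% of protein-coding genes). That setting takes away the protein-coding genes' own promoter summits by construction, so these shares cannot be compared as the others are. The remaining alternatives stayed within 1.5 times of the reported counts.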

Other observations

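MicroRNA genes were also split by the number in their name, a choice made after the values were seen. Of 137 genes numbered below 1000, counting let-7, lin-4 and lsy-6, 17 (12.4%) had an optimal summit and 70.1% a pooled candidate. Protein-coding genes had 5.42% and 50.7%. The 17 genes are not 17 sites, since the 4 genes of the mir-64 cluster share 1 summit and mir-54 to mir-56 share another. Of 124 genes numbered 1000 or more, 4 (3.23%) had an optimal summit and 54.0% a pooled candidate. Those 4 are mir-2215, mir-1824, mir-5549 and mir-2216, and for the last 3 a protein-coding promoter held the summit.

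By chromosome, an optimal summit was found for 5 of 33 genes on I (15.2%), 3 of 50 on II (6%), 7 of 27 on III (25.9%), 2 of 50 on IV (4%), 0 of 28 on V and 4 of 73 on X (5.48%). The share of protein-coding genes was 6.74%, 5.94%, 7.77%, 5.09%, 3.42% and 5.16% in the same order, so 0 of 28 on V is near its background. The 7 genes on III rest on 4 summits, 1 of them shared by the mir-64 cluster, and the 4 on X rest on 2, 1 of them shared by mir-54 to mir-56. On V, where no gene had an optimal summit, 12 genes (42.9%) had a pooled candidate, against 38.5% of protein-coding genes there.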
